A study of Mus musculus with 8 samples.

Results

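The Hox genes of the mouse colon were followed across arrays of STAT5b-deficient and wild type animals. Members were all genes whose symbol is Hox, a cluster letter a to d and a group number, and 31 of the 39 such genes in the RefSeq annotation were measured, each by a single probe set, out of 14348 genes measured in all. They comprise 10 Hoxa, 7 Hoxb, 6 Hoxc and 8 Hoxd genes. No probe set was matched to Hoxa6, Hoxb3, Hoxb7, Hoxb9, Hoxc8, Hoxc11, Hoxc12 or Hoxd8, which are not analysed here.

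Colon RNA of adult mice was measured on Affymetrix arrays in 3 samples titled STAT5b-/- from mice deficient in STAT5b, in the sample titled REF, which has the wild type genotype, and in 3 samples titled WT, also of wild type genotype. STAT5b carries signals of growth hormone, prolactin and cytokine receptors to the nucleus, where it binds DNA. STAT5b-/- replicate 1 was male and every other sample was female. REF was deposited as 2 columns that agree to within 2.47e-07 of their value and were counted as 1 sample, and the meaning of the title REF is not given. Strain, segment of the colon and the extent of the deletion are not given in the sources used here, nor whether replicates come from different mice. The p-values therefore cover only the variation among these arrays, which may be technical.

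Values are ratios, with the average of the 3 WT arrays set to 1, so a gene is compared with itself between samples and never with another gene in level. For the same reason the presence of colon markers could not be checked from these values. Array medians over all probe sets lay between 0.968 and 0.988 in the STAT5b-/- arrays, at 0.948 in REF and between 0.960 and 1.04 in the WT arrays. The spread of each array's log2 ratios, as an SD, ran from 0.646 to 0.737 in the STAT5b-/- arrays, 0.402 in REF and 0.289 to 0.363 in the WT arrays (the WT arrays form the denominator, which narrows their spread). Stat5b itself, the gene named in the labels, had ratios of 1.16, 1.17 and 1.26 in the STAT5b-/- arrays, 1.18 in REF and 1.08, 0.930 and 0.993 in the WT arrays, and was not called (limma adjusted p = 0.175). Stat5b signal was thus no check of the STAT5b-/- label, and the direction of each difference depends on the labels. The deleted part of Stat5b is not given, and probes lying elsewhere in the gene would be no check on the genotype.

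Hox genes encode homeodomain transcription factors that give positions along the body axis their identity. They lie in 4 clusters, named a to d, in which genes are numbered in order along the chromosome: genes of low number are used towards the head and genes of high number towards the tail, and those that share a number in different clusters are paralogs. In the adult gut, epithelium and mesenchyme both keep a Hox pattern that differs between the small intestine, the proximal colon and the distal colon. Hox proteins bind DNA together with cofactors of the TALE class (Pbx, Meis and Pknox proteins), and retinoic acid and the caudal-type factors Cdx1 and Cdx2 are among the regulators known to act on the clusters.

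Promoter sequences are shown for the 5 Hox genes that were at least 2-fold higher in STAT5b-/- colon and that RefSeq's promoter table holds, and for Hoxa13, the only gene at least 2-fold lower that it holds, so that the start regions of called genes can be read. No sequence is shown for Hoxb5, Hoxb6 and Hoxb13. Each is the 250 bases before the start that RefSeq gives on GRCm38.p6, written 5′ to 3′ along the gene. Capitals mark letters of 4 short motifs searched on both strands: TTCNNNGAA, the palindrome bound by STAT proteins, TTTATNG, a short form of the caudal-type site, TGATNNAT, a joint Hox and Pbx site, and AGGTCA, the core of retinoic acid receptor sites.
Hoxb8, chr11:96281655-96281904, plus strand: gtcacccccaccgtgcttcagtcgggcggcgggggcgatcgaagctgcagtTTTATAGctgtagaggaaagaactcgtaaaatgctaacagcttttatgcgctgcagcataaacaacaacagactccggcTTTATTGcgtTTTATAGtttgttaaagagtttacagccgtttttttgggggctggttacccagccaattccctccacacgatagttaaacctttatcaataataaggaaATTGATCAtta
Hoxd9, chr2:74697513-74697762, plus strand: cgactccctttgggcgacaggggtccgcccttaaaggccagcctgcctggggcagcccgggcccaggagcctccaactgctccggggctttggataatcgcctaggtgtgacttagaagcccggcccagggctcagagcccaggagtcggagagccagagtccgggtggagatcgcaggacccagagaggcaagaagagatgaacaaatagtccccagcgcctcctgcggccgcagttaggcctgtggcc
Hoxd10, chr2:74691641-74691890, plus strand: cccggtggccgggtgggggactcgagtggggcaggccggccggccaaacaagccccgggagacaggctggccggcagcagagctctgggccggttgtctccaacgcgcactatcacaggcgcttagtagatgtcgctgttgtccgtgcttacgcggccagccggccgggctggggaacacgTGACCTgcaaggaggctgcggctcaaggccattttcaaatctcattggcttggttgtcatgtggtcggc
Hoxb4, chr11:96318017-96318266, plus strand: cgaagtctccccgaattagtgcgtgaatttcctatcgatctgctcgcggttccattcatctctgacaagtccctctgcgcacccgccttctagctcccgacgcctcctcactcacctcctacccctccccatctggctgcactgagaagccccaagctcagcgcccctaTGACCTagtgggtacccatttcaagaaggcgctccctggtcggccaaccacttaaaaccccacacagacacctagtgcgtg
Hoxd4, chr2:74721728-74721977, plus strand: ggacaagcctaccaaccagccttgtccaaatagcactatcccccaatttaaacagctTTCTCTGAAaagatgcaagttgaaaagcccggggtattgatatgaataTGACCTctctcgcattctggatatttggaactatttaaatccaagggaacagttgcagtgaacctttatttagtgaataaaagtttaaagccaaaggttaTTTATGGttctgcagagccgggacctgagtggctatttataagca
Hoxa13, chr6:52260881-52261130, minus strand: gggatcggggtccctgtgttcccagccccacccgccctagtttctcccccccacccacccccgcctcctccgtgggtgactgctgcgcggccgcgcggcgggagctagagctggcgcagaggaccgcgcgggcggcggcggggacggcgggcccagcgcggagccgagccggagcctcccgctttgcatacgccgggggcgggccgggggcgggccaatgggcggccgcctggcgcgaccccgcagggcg
The table held 22 promoters of 20 measured Hox genes, among them 6 that rose and 2 that fell, and matches of different motifs did not overlap in any of them. The STAT palindrome was found in Hoxd4 alone of these 20 genes, and in 7.02% of the 32851 promoters searched. Shares and GC content given over all promoters leave out a chromosome that holds no Hox cluster. TTTATNG was found in Hoxb8, which holds 3 copies, and in Hoxd4, against 9.81% of all promoters. TGATNNAT was found in Hoxa2, Hoxb1, Hoxb8 and Hoxd11, against 7.68% of all promoters, and AGGTCA in Hoxb4, Hoxc4, Hoxd3, Hoxd4 and Hoxd10, against 14% of all promoters. None of the 4 motifs was found in the windows of Hoxd9 and Hoxa13. A match describes these letters only and is not a binding site shown in these samples. GC content was 44.4% in the Hoxb8 window, 58.0% in Hoxb4, 40.4% in Hoxd4, 65.2% in Hoxd9, 65.6% in Hoxd10 and 80.0% in Hoxa13, and the median over the 22 Hox windows was 58.6%, against 52.4% over all promoters.

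The main comparison asks which Hox genes differ between STAT5b-deficient and wild type colon. In the STAT5b-/- arrays, 9 of the 31 Hox genes rose and 3 fell. The rises lay in the Hoxb cluster, from Hoxb2 to Hoxb8, and in the Hoxd cluster, at Hoxd4 and from Hoxd9 to Hoxd11. The falls were those of Hoxb13, Hoxa13 and Hoxa3. Calls were made with limma over all 14348 genes, with Benjamini-Hochberg adjustment and a threshold of 0.05. Over all genes the same test called 13.3% higher and 8.43% lower, 21.7% in all, against 29% and 9.68% of the Hox genes. Changes of at least 2-fold, in either direction, were seen in 9 Hox genes, all of them called, and in 9.4% of all genes. The median log2 fold change was 0.034 over the 31 Hox genes and 0.007 over all genes. After quantile normalization of the arrays, which makes their spreads equal, Hoxb4, Hoxb8 and Hoxb13 stayed called, at smaller log2 fold changes of 1.04, 2.15 and -3.20, and the calls on the other 9 ended, with directions as before. The Hox genes were chosen with earlier results of these data known, and these shares describe them without a test of the family.

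**Figure D1:**
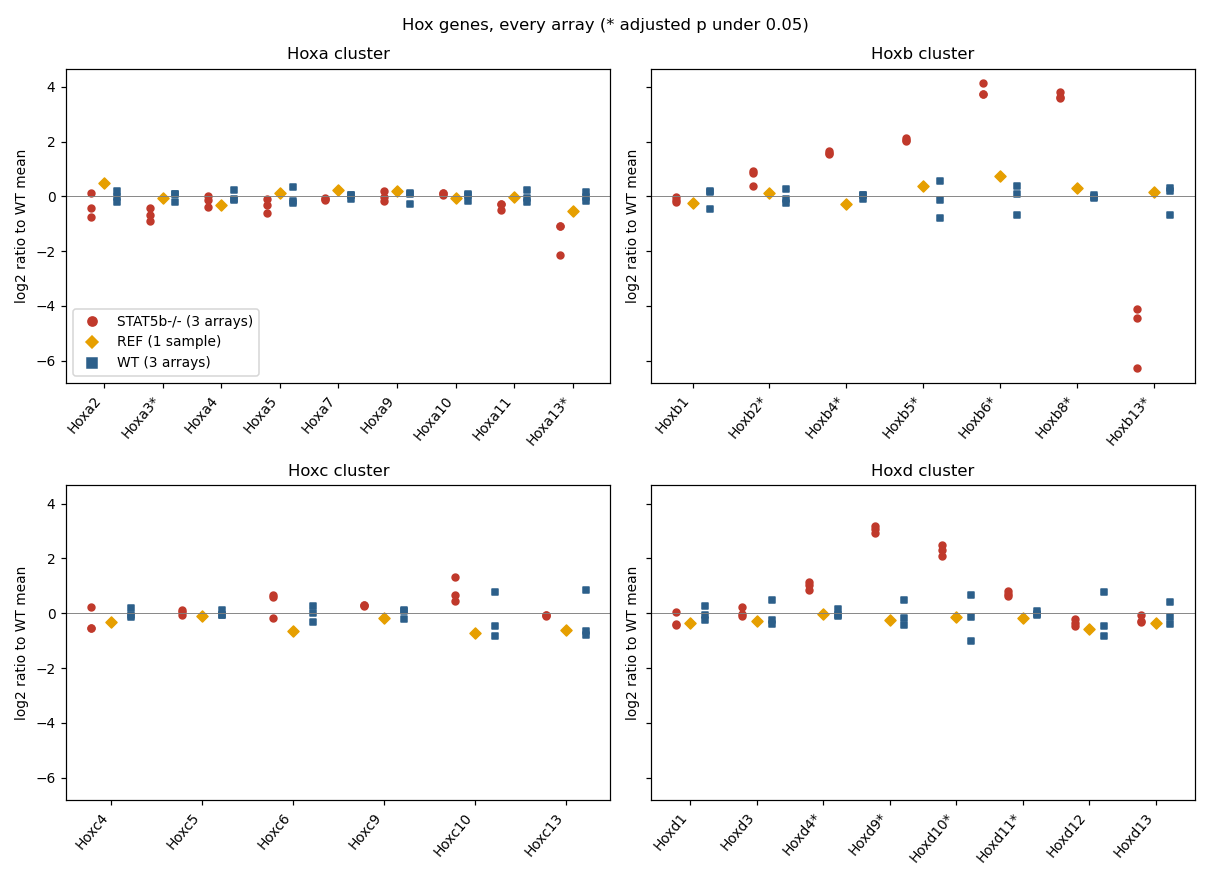
Log2 ratio to the WT mean (y axis) of the Hox genes reported here (x axis, 1 panel per cluster) in the 3 STAT5b-/- arrays (circles), REF (diamonds) and the 3 WT arrays (squares), with an asterisk on the 12 genes that passed the test. Hoxb4, Hoxb5, Hoxb6, Hoxb8, Hoxd9 and Hoxd10 stand above every wild type point, and Hoxb13 far below them.

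The Hoxb cluster held the widest changes. Of its 7 measured genes 5 rose, 1 fell and 1 did not pass, and its median log2 fold change was 1.59. Over all genes 13.3% were called higher and 8.43% lower. Hoxb6, which marks posterior lateral mesoderm in the embryo, had ratios of 17.7, 13.4 and 13.4 in the STAT5b-/- arrays, 1.66 in REF and 1.06, 0.623 and 1.32 in the WT arrays. All STAT5b-/- arrays stood far above all wild type samples, and REF was the highest of the wild type samples. Hoxb6 was 15.4-fold higher in STAT5b-/- than in WT, with a log2 fold change of 3.94 ± 0.29 (SE, limma adjusted p = 0.000402).

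Hoxb8, which acts in myeloid progenitors and microglia and whose promoter window is shown above, had ratios of 14.2, 12.4 and 12.1 in the STAT5b-/- arrays, 1.23 in REF and 0.970, 0.989 and 1.04 in the WT arrays. Its WT arrays differed by 1.07-fold at most and its STAT5b-/- arrays by 1.17-fold at most, so the gap between groups was many times the spread within either. The difference was 12.9-fold, with a log2 fold change of 3.69 ± 0.12 (SE, limma adjusted p = 2.41e-05), the smallest adjusted p among the Hox genes.

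Hoxb5, known for its role in the neural crest that forms the enteric nervous system, had ratios of 4.19, 4.35 and 4.04 in the STAT5b-/- arrays, 1.31 in REF and 0.922, 0.586 and 1.49 in the WT arrays. The STAT5b-/- arrays lay close together and above all wild type samples, while the WT arrays differed among themselves by 2.55-fold. Hoxb5 was 4.50-fold higher in STAT5b-/-, with a log2 fold change of 2.17 ± 0.32 (SE, limma adjusted p = 0.00455). Hoxb4, a factor that expands haematopoietic stem cells, had ratios of 2.91, 2.97 and 3.14 in the STAT5b-/- arrays, 0.816 in REF and 1.03, 1.05 and 0.927 in the WT arrays. It was 3.01-fold higher, with the groups fully apart (log2 fold change 1.59 ± 0.12, SE, limma adjusted p = 0.000429). Hoxb2, a factor of hindbrain patterning, had ratios of 1.92, 1.82 and 1.30 in the STAT5b-/- arrays, 1.09 in REF and 0.852, 1.21 and 0.939 in the WT arrays. Its rise of 1.68-fold lay near the threshold (log2 fold change 0.74 ± 0.21, SE, limma adjusted p = 0.0447). The call on Hoxb2 ended without STAT5b-/- replicate 1 (adjusted p = 0.144) or replicate 2 (0.145), and without WT replicate 1 (0.114) or replicate 3 (0.119).

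Hoxb1, at the anterior end of the same cluster, had ratios of 0.973, 0.864 and 0.916 in the STAT5b-/- arrays, 0.854 in REF and 0.725, 1.13 and 1.15 in the WT arrays. The groups overlapped, and its log2 fold change of -0.10 ± 0.20 did not pass (SE, limma adjusted p = 0.785). From Hoxb1 through Hoxb2, Hoxb4 and Hoxb5 to Hoxb6 the log2 fold change was larger at each next measured gene, at -0.10, 0.74, 1.59, 2.17 and 3.94. This order is a description of 5 genes of the same arrays. Hoxb8, the next measured gene, stood at 3.69, with a fold change whose 95% interval of 3.40 to 3.98 on the log2 scale lies inside that of Hoxb6, 3.26 to 4.63. The order of Hoxb6 and Hoxb8 turned without WT replicate 2, at 3.64 and 3.68.

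At the posterior end of the cluster the direction turned. Hoxb13, a factor of the tail end of the body and of the prostate, had ratios of 0.0128, 0.0455 and 0.0574 in the STAT5b-/- arrays, 1.12 in REF and 1.14, 1.24 and 0.627 in the WT arrays. Every STAT5b-/- array stood more than 10-fold below every wild type sample, and the STAT5b-/- arrays differed among themselves by 4.47-fold, the lowest being the male, replicate 1. The lowest value lay close to 0.01, the lowest that the table holds. Hoxb13 was 29.7-fold lower in STAT5b-/- (log2 fold change -4.89 ± 0.58, SE, limma adjusted p = 0.00206) and remained called without STAT5b-/- replicate 1, at a log2 fold change of -4.23 (adjusted p = 0.00404). Its size depends on how the lowest values are treated: with a pseudocount of 0.1 the log2 fold change was -2.95, and after quantile normalization -3.20, both still called.

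The Hoxd cluster changed in its middle. Of its 8 measured genes 4 rose and 0 fell, against 13.3% and 8.43% of all genes, and the median log2 fold change was 0.40. Hoxd9, the first of the posterior class in this cluster, had ratios of 8.41, 8.99 and 7.72 in the STAT5b-/- arrays, 0.851 in REF and 0.877, 0.736 and 1.39 in the WT arrays. The STAT5b-/- arrays were close together and all stood above the wild type samples. Hoxd9 was 8.67-fold higher (log2 fold change 3.12 ± 0.24, SE, limma adjusted p = 0.000488).

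Hoxd10, which patterns lumbar motor neurons and the hindlimb, had ratios of 5.66, 4.91 and 4.26 in the STAT5b-/- arrays, 0.907 in REF and 0.911, 1.59 and 0.501 in the WT arrays. The WT arrays spread over 3.17-fold, which is wider than the 1.33-fold spread of the STAT5b-/- arrays, and the groups did not overlap. It was 5.47-fold higher (log2 fold change 2.45 ± 0.39, SE, limma adjusted p = 0.00647). Hoxd11, needed for the forearm and the kidney together with Hoxa11, had ratios of 1.77, 1.55 and 1.62 in the STAT5b-/- arrays, 0.891 in REF and 0.975, 1.06 and 0.962 in the WT arrays. Its rise of 1.64-fold was smaller but stood clear of the wild type samples (log2 fold change 0.72 ± 0.12, SE, limma adjusted p = 0.00772). RefSeq's spans of Hoxd10 and Hoxd11 overlap, as do those of Hoxd3 and Hoxd4, of Hoxa3 and Hoxa4 and of Hoxa3 and Hoxa5. The span of Hoxb4 overlaps that of Hoxb3, and the span of Hoxa3 that of Hoxa6, with Hoxb3 and Hoxa6 not measured. Probe positions were not used here, so signal from shared sequence cannot be told apart in these pairs.

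Hoxd4, a hindbrain and neck factor, had ratios of 1.79, 2.19 and 2.05 in the STAT5b-/- arrays, 0.974 in REF and 0.926, 1.12 and 0.956 in the WT arrays. The groups were fully apart, with a 2.01-fold rise (log2 fold change 1.01 ± 0.14, SE, limma adjusted p = 0.00394). The other 4 Hoxd genes did not pass. Hoxd1, Hoxd3, Hoxd12 and Hoxd13 had log2 fold changes of -0.24 ± 0.20, 0.09 ± 0.24, -0.16 ± 0.39 and -0.19 ± 0.22 (SE). The 95% interval of Hoxd13, a factor of the digits and the hindgut, was -0.71 to 0.33 on the log2 scale, and that of Hoxd12 was -1.10 to 0.77, which includes a level 2-fold lower.

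The Hoxa cluster held 2 called members, both lower. Its median log2 fold change regardless of sign was 0.33, against 0.30 over all genes. Of its 10 measured genes 0 rose, 2 fell and 8 did not pass, with a median log2 fold change of -0.33. The shares over all genes were 13.3% called higher and 8.43% lower. Hoxa13, which with Hoxd13 forms the hindgut, digits and external genitalia in the mouse, had ratios of 0.228, 0.471 and 0.472 in the STAT5b-/- arrays, 0.690 in REF and 0.889, 0.984 and 1.13 in the WT arrays. The STAT5b-/- arrays lay below all wild type samples, the male being the lowest, and REF lay between the groups. Among the called rises the male was the highest STAT5b-/- array for Hoxb2, Hoxb6, Hoxb8, Hoxd10 and Hoxd11. It was not the highest for Hoxb4, Hoxb5, Hoxd4 and Hoxd9, nor the lowest for Hoxa3. Hoxa13 was 2.69-fold lower in STAT5b-/- than in WT (log2 fold change -1.43 ± 0.30, SE, limma adjusted p = 0.0163) and 1.86-fold lower than in REF, and the call ended without WT replicate 3 (adjusted p = 0.0561).

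Hoxa3, needed for the thymus and parathyroid, had ratios of 0.754, 0.534 and 0.621 in the STAT5b-/- arrays, 0.971 in REF and 0.860, 1.07 and 1.07 in the WT arrays. The groups did not overlap, and the fall was 1.58-fold (log2 fold change -0.66 ± 0.17, SE, limma adjusted p = 0.0372). That call is near the threshold: it ended without STAT5b-/- replicate 2 (adjusted p = 0.123) or replicate 3 (0.115), and without WT replicate 2 (0.0574) or replicate 3 (0.109).

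A further 7 Hoxa genes had log2 fold changes between -0.34 and 0.10 and did not pass. Hoxa11 lay lower in all 3 STAT5b-/- arrays, at 0.822, 0.834 and 0.708, than in REF at 0.990 and in the WT arrays at 0.870, 0.958 and 1.17, without passing (limma adjusted p = 0.178). Hoxa2, Hoxa4, Hoxa5, Hoxa7, Hoxa9 and Hoxa10 overlapped between the groups. Hoxa7, Hoxa9 and Hoxa10 form a run in the middle of the cluster, and their log2 fold changes were -0.09 ± 0.11, 0.004 ± 0.17 and 0.10 ± 0.13 (SE). Their 95% intervals were -0.36 to 0.19, -0.39 to 0.40 and -0.20 to 0.40 on the log2 scale, which does not include a 2-fold change in either direction. Hoxa9, a factor of haematopoietic progenitors, is the paralog of Hoxd9, which had a log2 fold change of 3.12 in the same arrays.

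None of the 6 measured Hoxc genes passed the limma test, which called 21.7% of all genes. Hoxc9 had ratios of 1.20, 1.25 and 1.23 in the STAT5b-/- arrays, 0.896 in REF and 0.860, 1.06 and 1.08 in the WT arrays, so the groups did not overlap, with a log2 fold change of 0.30 ± 0.14 (SE, limma adjusted p = 0.168). Hoxc10, a factor of the lumbar spinal cord, had ratios of 2.48, 1.59 and 1.36 in the STAT5b-/- arrays, 0.610 in REF and 0.560, 1.72 and 0.723 in the WT arrays. WT replicate 2 stood among the STAT5b-/- arrays, while REF and the other WT arrays were lower. The log2 fold change of 0.98 ± 0.44 did not pass (SE, limma adjusted p = 0.164), and without WT replicate 2 it was 1.46 and did (adjusted p = 0.0109).

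Hoxc13, which acts in hair and nail, showed the same array standing apart. Its ratios were 0.942, 0.951 and 0.957 in the STAT5b-/- arrays, 0.647 in REF and 0.640, 1.78 and 0.578 in the WT arrays. Its log2 fold change was 0.13 ± 0.41 (SE, limma adjusted p = 0.864), and 0.64 without WT replicate 2 (adjusted p = 0.0104). Hoxd12, with ratios of 0.862, 0.782 and 0.732 in the STAT5b-/- arrays, 0.672 in REF and 0.560, 1.72 and 0.721 in the WT arrays, had the same form. WT replicate 2 was the highest WT array in 17 of the 31 Hox genes, among them 7 of the 8 Hoxd genes, and in 48.9% of all genes. Hoxc4, Hoxc5 and Hoxc6 had log2 fold changes of -0.28 ± 0.24, 0.03 ± 0.13 and 0.38 ± 0.27 (SE), and their groups overlapped.

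**Figure D2:**
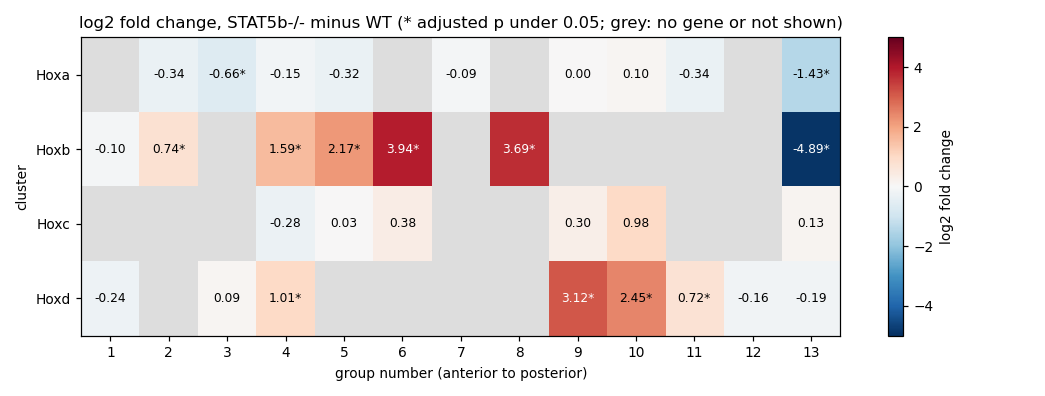
Log2 fold change of STAT5b-/- over WT by cluster (rows) and group number (columns), coloured from blue (lower) to red (higher), with an asterisk where the adjusted p was under 0.05 and grey where there is no gene or no value is reported here. The rises form 2 blocks, Hoxb2 to Hoxb8 and Hoxd9 to Hoxd11, beside Hoxd4, and group 13 holds the 2 largest falls, Hoxb13 and Hoxa13.

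The genes were also read by group number. In group 13 Hoxa13 and Hoxb13 fell, while Hoxc13 and Hoxd13 did not pass. In group 4 Hoxb4 and Hoxd4 rose, while Hoxa4 and Hoxc4 were not called, at log2 fold changes of -0.15 and -0.28. In group 5 Hoxb5 rose, against log2 fold changes of -0.32 for Hoxa5 and 0.03 for Hoxc5, and in group 6 Hoxb6 rose, against 0.38 for Hoxc6. In groups 9 and 10 Hoxd9 and Hoxd10 rose, against 0.004 and 0.30 for Hoxa9 and Hoxc9 and 0.10 and 0.98 for Hoxa10 and Hoxc10. Differences between paralogs were not tested. Over groups 1 to 3, 1 of 7 measured genes rose and 1 fell. Over groups 4 to 8, 5 of 11 rose and 0 fell, and over groups 9 to 13, 3 of 13 rose and 2 fell. The rises in groups 4 to 8 were those of Hoxb4, Hoxb5, Hoxb6, Hoxb8 and Hoxd4. Over all genes 13.3% were called higher and 8.43% lower, and differences between the ranges were not tested. The median log2 fold changes of these 3 ranges were -0.24, 0.38 and 0.10.

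The order along each cluster was set beside the genes that flank it, taken as the 3 nearest measured genes on either side, 24 in all, chosen by position after the Hox values were seen. Of these 1 rose and 1 fell, against 13.3% and 8.43% of all genes, and their median log2 fold change was 0.041. Ttll6, the measured gene next to Hoxb13 and a tubulin-modifying enzyme, fell (log2 fold change -1.37 ± 0.24, SE, limma adjusted p = 0.00846). On the anterior side of the Hoxb cluster, Skap1, Snx11 and Cbx1 were not called, at log2 fold changes of 0.23, 0.38 and -0.13. Beside Hoxd1, Mtx2 was not called, at 0.28 on the log2 scale, and Nfe2l2, the regulator of the oxidant response and the next measured gene, rose by 0.77 ± 0.14 (SE, limma adjusted p = 0.00932). Evx1, a homeobox gene next to Hoxa13, and Evx2, next to Hoxd13, had log2 fold changes of -0.68 ± 0.25 and -0.15 ± 0.22 (SE, limma adjusted p = 0.0993 and 0.687).

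**Figure D3:**
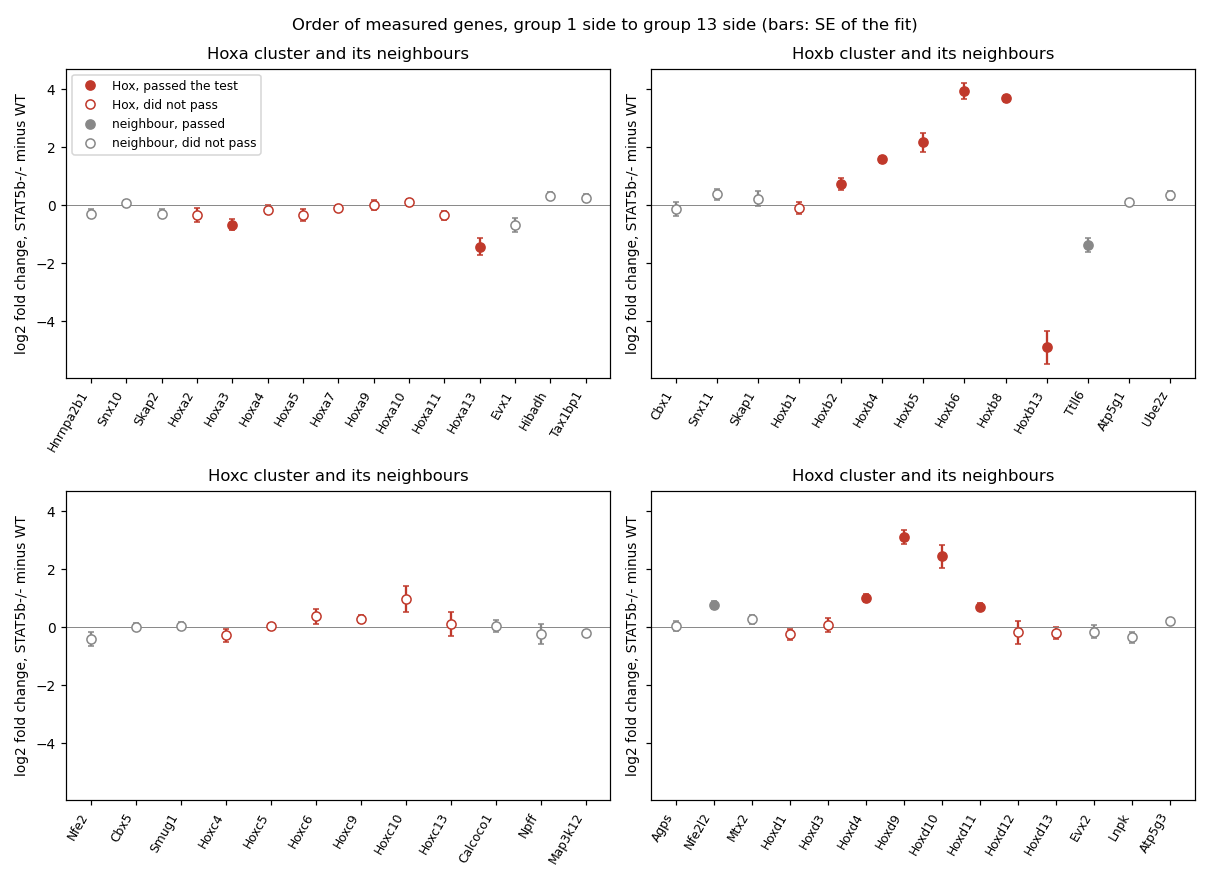
Log2 fold change of STAT5b-/- over WT (y axis, bars are the SE of the fit) for genes reported here in order along each cluster, from the group 1 side to the group 13 side (x axis), with Hox genes in red, 3 neighbours on either side in grey, and filled points for genes that passed the test. The highest points are Hoxb6 and Hoxb8 in their cluster and Hoxd9 in its own, and of the neighbours Ttll6 and Nfe2l2 passed the test.

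REF gives a wild type sample whose values are not part of the WT mean. Whether its RNA comes from other mice than that of the WT arrays is not given. Against WT, 0 of the 31 Hox genes passed in REF (limma, 1 sample against 3, with REF assumed to vary like the WT arrays), and 0% of all genes did. At an unadjusted p under 0.05 there were 0 Hox genes and 208 genes in all. With 1 REF sample this count does not show that REF equals WT. Log2 differences of REF from WT ran from -0.63 at Hoxc6 to 0.80 at Hoxb6. They reached 1.5-fold in Hoxb6 and Hoxc6, 6.45% of the Hox genes, and in 9.08% of all genes. REF lay outside the range of the WT arrays in 13 Hox genes, 41.9%, against 48.4% of all genes.

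The STAT5b-/- arrays stood apart from all 4 wild type samples, REF included, in 15 Hox genes, 10 above and 5 below. That is 48.4% of the Hox genes, against 36.7% of all genes. Against the 3 WT arrays alone the groups did not overlap in 15 Hox genes either, against 41.5% of all genes. Set against REF in place of WT, the STAT5b-/- mean was 8.86-fold higher for Hoxb6, 10.5-fold for Hoxb8, 9.82-fold for Hoxd9 and 5.42-fold for Hoxd10. It was 3.68-fold higher for Hoxb4, 3.21-fold for Hoxb5 and 2.06-fold for Hoxd4, and 34.6-fold lower for Hoxb13. Hoxb2 was 1.51-fold and Hoxd11 1.84-fold higher than in REF, and Hoxa13 was 1.86-fold and Hoxa3 1.54-fold lower. The fold was smaller against REF than against WT for Hoxb2, Hoxb5, Hoxb6, Hoxb8, Hoxd10, Hoxa13 and Hoxa3, and larger for the other called genes. With REF added to WT, 9 Hox genes were called higher and 4 lower, while 24.6% of all genes were called.

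**Figure D4:**
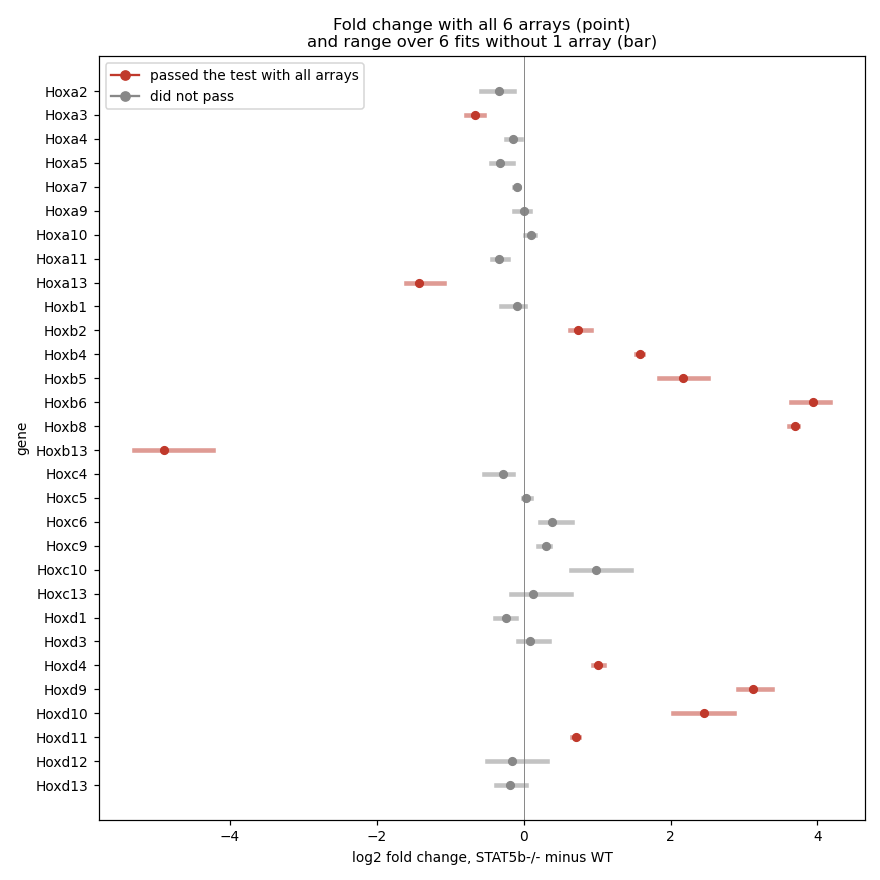
Log2 fold change of STAT5b-/- over WT (x axis) for the Hox genes reported here (y axis, clusters a to d from the top), with all 6 arrays (point) and as a range over the 6 fits that leave out 1 array (bar), in red for the 12 genes that passed with all arrays. The bars of those 12 genes do not reach 0, while those of 7 uncalled genes, Hoxc13 and Hoxd12 among them, cross it.

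Genes that act with or upstream of Hox genes were read from 5 lists. Counts of called members stand beside 13.3% of all genes called higher and 8.43% lower. Of the 9 TALE cofactors, all measured, 1 rose and 0 fell, with a list median log2 fold change of 0.23. Of the 17 measured ParaHox and gut position factors, Cdx2 rose and 0 fell, with a median of -0.07. Cdx2, which specifies intestinal epithelium, had ratios of 1.63, 1.76 and 1.71 in the STAT5b-/- arrays, 1.14 in REF and 1.03, 0.791 and 1.18 in the WT arrays. All STAT5b-/- arrays lay above the wild type samples, with a log2 fold change of 0.79 ± 0.17 (SE, limma adjusted p = 0.0185). Its relative Cdx1 had a log2 fold change of 0.39 ± 0.15 (SE, limma adjusted p = 0.104).

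Of 17 measured genes of retinoic acid signalling 4 rose and 0 fell, against 13.3% and 8.43% of all genes. The list median was -0.08. Aldh1a1, which makes retinoic acid, had ratios of 3.68, 2.93 and 2.72 in the STAT5b-/- arrays, 0.774 in REF and 0.860, 0.840 and 1.30 in the WT arrays. The STAT5b-/- arrays stood clear of the wild type samples, with a log2 fold change of 1.66 ± 0.21 (SE, limma adjusted p = 0.00297). The receptor Rxra rose by 1.15 ± 0.14 and the retinal reductase Dhrs3 by 0.83 ± 0.14 on the log2 scale (SE, limma adjusted p = 0.00239 and 0.00682). The receptors Rara, Rarb and Rarg were not called, at log2 fold changes of -0.10, 0.33 and 0.16. Cyp26a1, which clears retinoic acid, had ratios of 0.284, 0.449 and 0.853 in the STAT5b-/- arrays, 0.224 in REF and 0.308, 2.11 and 0.583 in the WT arrays, with WT replicate 2 alone standing high.

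Polycomb proteins keep Hox clusters silent, and Trithorax proteins keep them active. Of 23 measured Polycomb genes 3 rose and 1 fell, with a median of 0.16. Rnf2, Phc2 and Ezh1 rose by 0.53 ± 0.12, 0.52 ± 0.14 and 0.48 ± 0.12, and Jarid2 fell by 0.45 ± 0.11 on the log2 scale (SE, limma adjusted p between 0.0211 for Rnf2 and 0.0363 for Phc2). Of 9 measured Trithorax genes and H3K27 demethylases Dpy30 rose by 0.64 ± 0.14 (SE, limma adjusted p = 0.0213) and 0 fell, with a median of 0.10. These counts stand beside the background of 21.7% of all genes called.

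**Figure D5:**
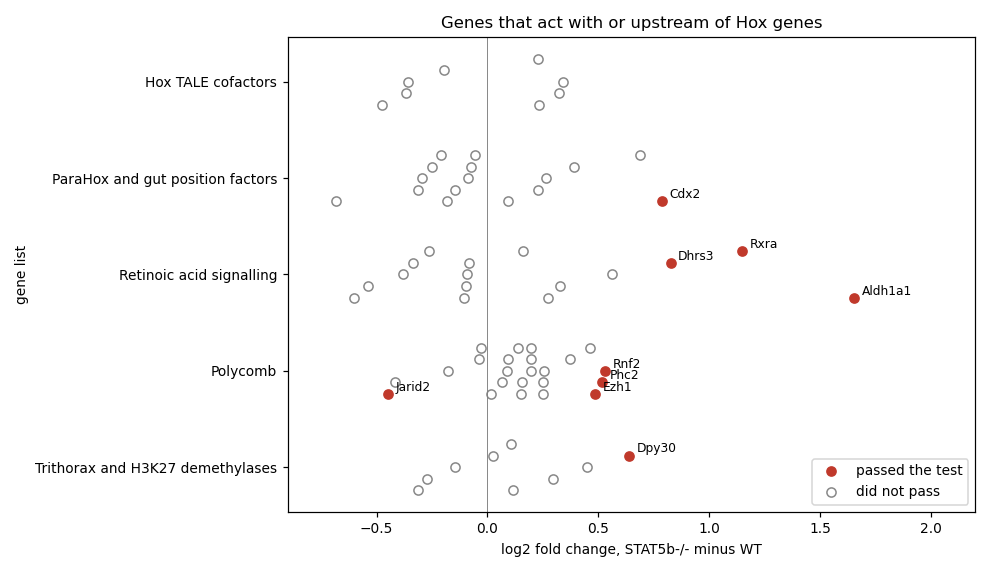
Log2 fold change of STAT5b-/- over WT (x axis) for members of 5 gene lists that are reported here (rows, points spread vertically for clarity), with genes that passed the test filled and named. Aldh1a1 and Rxra of retinoic acid signalling lie farthest to the right, and Jarid2 is the named gene to the left of 0.

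The colon wall holds several cell types that carry Hox transcripts, and in bulk RNA fewer cells of a type and less RNA per cell cannot be told apart. The counts of called markers below stand beside 13.3% of all genes called higher and 8.43% lower. Fibroblast markers fell in 7 of 9 and rose in 0, with summed ratios over the 9 genes of 4.75 to 5.81 in the STAT5b-/- arrays, 8.14 in REF and 7.96 to 9.54 in the WT arrays. Epithelial markers rose in 3 of 8 and fell in 1, with sums of 10.6 to 11.4 in the STAT5b-/- arrays, 8.87 in REF and 7.90 to 8.15 in the WT arrays. Smooth muscle markers had 0 of 9 called, with sums of 7.43 to 10.4 in the STAT5b-/- arrays, 8.07 in REF and 7.85 to 10.7 in the WT arrays. Enteric neuron and glia markers had 0 of 7 called, with sums of 6.14 to 6.88, 6.29 in REF and 6.58 to 7.35 in WT. Leukocyte markers fell in 3 of 7 and rose in 1, with sums of 3.92 to 4.86, 5.43 in REF and 5.24 to 8.33 in WT. Endothelial markers fell in 1 of 7 and rose in 0, with sums of 6.48 to 7.08, 6.73 in REF and 6.54 to 7.29 in WT. Markers of anal and squamous epithelium had 0 of 8 called, with sums of 5.90 to 7.43 in the STAT5b-/- arrays, 6.31 in REF and 6.83 to 10.3 in the WT arrays, the highest being WT replicate 2.

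Small intestine markers rose in 2 of 5 and fell in 0, with sums of 19.4 to 31.0 in the STAT5b-/- arrays, 4.74 in REF and 4.48 to 5.88 in the WT arrays. Much of the sum came from the ileal bile acid transporter Slc10a2, with ratios of 15.8, 25.5 and 9.32 in the STAT5b-/- arrays, 0.715 in REF and 0.772, 1.32 and 0.905 in the WT arrays. The other called marker was the fatty acid binding protein Fabp2. The ileal Fabp6 and the chylomicron protein Apoa4 were not called, at log2 fold changes of 1.27 and 0.06. In STAT5b-/- replicates 1, 2 and 3 the ratios were 4.2, 0.93 and 3.5 for Fabp6 and 5.52, 1.27 and 3.13 for Apoa1. Both lay within the range of the WT arrays in replicate 2 alone. Fabp2, at 1.95, 2.39 and 2.37, and Slc10a2 were highest in that replicate. Apoa4 lay within the WT range in all 3 STAT5b-/- arrays, at 1.10, 0.894 and 1.02. Because values are ratios, whether any of these markers is near 0 in level was not measured. The part that cell makeup, or the length of colon sampled, has in the Hox differences was not tested.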

How the data were processed

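Affymetrix arrays of mouse colon RNA were used, 8 columns in all. The deposited values are linear ratios: per the file's values, in every probe set the 3 WT arrays average 1 to within 1.87e-07, so the authors divided by the WT mean. RMA (background correction, normalization and summary of probes) comes from the submitters' processing notes, which give no version. Array level is removed by that division, so dim probe sets could not be filtered out, and precision is limited by the number of arrays and by each gene's own spread.

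Of 26180 probe sets, 15225 matched 1 symbol through RefSeq accessions (GRCm38.p6, used for names and gene order), 0 several and 10955 none. Ratios were taken to log2 with no pseudocount and averaged per gene. The comparison of STAT5b-/- with WT used limma 3.58.1 in R 4.3.3, as did that of REF with WT, with Benjamini-Hochberg adjustment over 14348 genes. Genes named are the measured Hox genes, Stat5b, Cdx1, Cdx2 and called members of 5 lists, up to 6 each, and some genes under this rule are counted but not reported here by name. Other named list members and flanking genes were chosen after their values were seen. Members and lists were chosen with earlier results of these data known. Same-numbered STAT5b-/- and WT arrays did not deviate together (correlations 0.0356, -0.0984 and -0.186), so numbers were not treated as pairs. Arrays of different number gave correlations from -0.137 to 0.216. With 3 arrays per group such values cannot exclude a pairing.

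On simulated data over 14348 genes for STAT5b-/- against WT, 62, 70 and 68 genes were given log2 changes of 0.5, 1 and 2. The test recovered 1.6%, 47.1% and 80.9% of them, and it called 8 genes simulated without change. Far fewer genes were changed there than the 21.7% called in the arrays. The adjusted threshold depends on that share, so these percentages do not give the recovery in the arrays themselves.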

Additional observations from a re-analysis of the deposited data

How the results depend on the processing

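Of the 12 called Hox genes, 9 stayed called in each of the 6 fits without 1 array, and Hoxb4, Hoxb8 and Hoxb13 in all 15 alternatives, with no called gene changing direction. Quantile normalization by construction gives every array the same spread. It thus widens the WT arrays, narrow because they form the denominator, and narrows the STAT5b-/- arrays. It left 2 Hox genes higher and 1 lower, and 158 genes higher and 239 lower over all. Against 61.2% in the main fit, 39.8% of calls were higher under quantile normalization. Under it the log2 fold change was 1.04 for Hoxb4, 2.15 for Hoxb8 and -3.20 for Hoxb13, still called, and 2.26 for Hoxb6 (adjusted p = 0.0746), 1.76 for Hoxd9 (0.105), 1.75 for Hoxd10 (0.134), 1.35 for Hoxb5 (0.357) and -1.12 for Hoxa13 (0.0794), and 9 of the 12 calls ended. Testing probe sets alone gave 2911 higher and 2188 lower among 26180. Leaving out 1 array gave 1053 to 2192 genes higher and 663 to 1359 lower, 8 to 11 Hox genes higher and 1 to 3 lower, the 1 being without WT replicate 3. With the replicate number as a block, though the numbers gave no sign of pairing, 1238 genes were higher and 801 lower. Of the Hox genes 8 were higher and 2 lower, without Hoxb2 and Hoxa3. Median centring, a pseudocount of 0.1, the highest probe set, robust variance and leaving out genes at the lowest value left 9 Hox genes higher and 3 lower, and the pseudocount took Hoxb13 to -2.95.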
